A study of Mus musculus with 6 samples.

Results

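Microglia, macrophage and complement genes were followed in the spinal cord of mice lacking Nogo-A. The members were every probe set of the deposited value table annotated to 1 of 32 listed genes, and 45 probe sets of 30 genes were found, of 45037 probe sets and 18193 named genes on the array. C3 had no probe set listed for it and C4b had only one that is annotated to several genes, so neither was analysed here. Knockout animals were Nogo-A KO mice of strain C57Bl/6, and their reference was wild type C57Bl/6. All animals were male, aged 4 months, untreated and uninjured. Each genotype had 3 animals with 1 Affymetrix Mouse 430 2.0 array each, and the tissue was spinal cord. Rtn4 encodes Nogo-A along with shorter proteins, and Nogo-A, found in myelinating cells and neurons, limits the outgrowth of axons. The labels do not describe how the allele was made or whether animals were littermates.

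Microglia are the resident macrophages of the brain and spinal cord. They depend on signals through the receptor Csf1r, survey the tissue with receptors for nucleotides and chemokines, and clear debris and synapses that complement has tagged. C1q, built from the products of C1qa, C1qb and C1qc, starts the classical complement pathway, and in the central nervous system microglia are its main source. In a whole-tissue sample, fewer cells of a type and less RNA per cell cannot be told apart.

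The C1q genes and many receptors of this group are transcribed in myeloid cells under the factor encoded by Spi1, which binds sites with a GAGGAA core. Promoters of C1qb and C1qc are shown because the complement genes had the lowest median change of the role groups. Both are the 250 bases before the start of transcription from RefSeq on GRCm38.p6, written 5′ to 3′ on the minus strand, with each match to GAGGAA or its reverse complement in capitals. C1qb lies at chr4:136886201-136886450 and C1qc at chr4:136892915-136893164.
C1qb: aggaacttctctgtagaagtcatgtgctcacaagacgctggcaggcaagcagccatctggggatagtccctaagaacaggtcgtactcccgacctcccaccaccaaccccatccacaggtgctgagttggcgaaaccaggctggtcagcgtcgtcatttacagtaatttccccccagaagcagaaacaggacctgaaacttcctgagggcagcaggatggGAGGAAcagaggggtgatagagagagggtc
C1qc: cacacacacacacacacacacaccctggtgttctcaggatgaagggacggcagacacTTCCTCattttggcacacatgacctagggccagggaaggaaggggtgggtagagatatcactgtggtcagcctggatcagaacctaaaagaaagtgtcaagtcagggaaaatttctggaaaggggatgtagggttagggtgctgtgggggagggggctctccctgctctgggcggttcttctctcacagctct
Each promoter held 1 match. Of the 24 member genes with a promoter in the RefSeq table, 14 (58.3%) held GAGGAA on either strand in these 250 bases, against 6986 of 27025 genes (25.9%). The longer motif GAGGAAGT, which contains the core, was found in C1qc alone among the members (4.17%), against 2.79% of all genes. A match of letters is a description of the window and not a binding site. C1qb, C1qc and C1qa are consecutive protein-coding genes on chromosome 4, and P2ry13 and P2ry12 are neighbours on chromosome 3.

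The labels were checked with the targeted gene. The fourth brightest of 5 Rtn4 probe sets read 78.2, 9.17 and 5.08 on the knockout arrays and 3560.2, 2790.4 and 2802 on the wild type arrays (limma, Benjamini-Hochberg adjusted p = 0.0149), at least 20.8-fold higher in wild type, while the other 4 were brighter on each knockout array than on any wild type array. It was the only probe set past an adjusted p of 0.05 among the 23546 tested. Tissue markers were bright on all arrays, with 28943 to 32046 in knockout and 24216 to 33804 in wild type for the neuronal gene Snap25. Wild type arrays were less alike than knockout arrays in their dim signals: the median intensity was 144.1, 149.0 and 143.8 on knockout replicates 1 to 3 and 147.9, 169.2 and 195.4 on wild type replicates 1 to 3. The mean correlation of wild type replicate 3 with the other arrays was 0.930, against 0.951 to 0.961 for the others. Intensities are MAS 5.0 signals on a linear scale, already scaled to a trimmed mean of 500 on each array. The labels number the arrays of a genotype as separate samples, and p-values measure only the spread between them.

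No member passed the threshold. A probe set was tested where it reached its array's median on at least 2 of 3 arrays of a genotype, and 37 member probe sets of 28 genes were. In limma, 0 of 37 passed a Benjamini-Hochberg adjusted p of 0.05 (adjusted p = 0.591 to 0.998), where 0.0% of all tested probe sets passed on the higher side and 0.00425% on the lower side. At an unadjusted p under 0.05, 5 were lower in knockout and 0 higher, or 13.5% and 0.0% of those tested, beside 3.98% and 4.3% of all tested probe sets. The methods' t-test, with a fold of at least 1.2, found 2 lower, Gpr34 and C3ar1, and 0 higher, beside 2.59% and 2.24% of all tested. The 5 were those of Gpr34 and C1qa, the second of C1qb, the brightest of C3ar1 and the fourth of Laptm5. The last 2 passed the filter on intensity through wild type only, which favours a difference. Taking each gene at its brightest tested probe set, 17 genes lay on the lower side and 11 on the higher, beside 48.6% and 51.4% of all tested probe sets. The median log2 change (knockout minus wild type) was -0.11, beside 0.0077 over all tested probe sets. Standard errors of single genes ran from 0.12 to 0.62 on the log2 scale. Dividing each array by its median moved the median of all tested probe sets to 0.23. It left the members at -0.11 relative to them, which this step cannot change because it moves all changes alike. At an unadjusted limma p under 0.05, 3 member probe sets were then lower (1.12% of all tested) and 1 higher (11.9% of all tested).

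**Figure D1:**
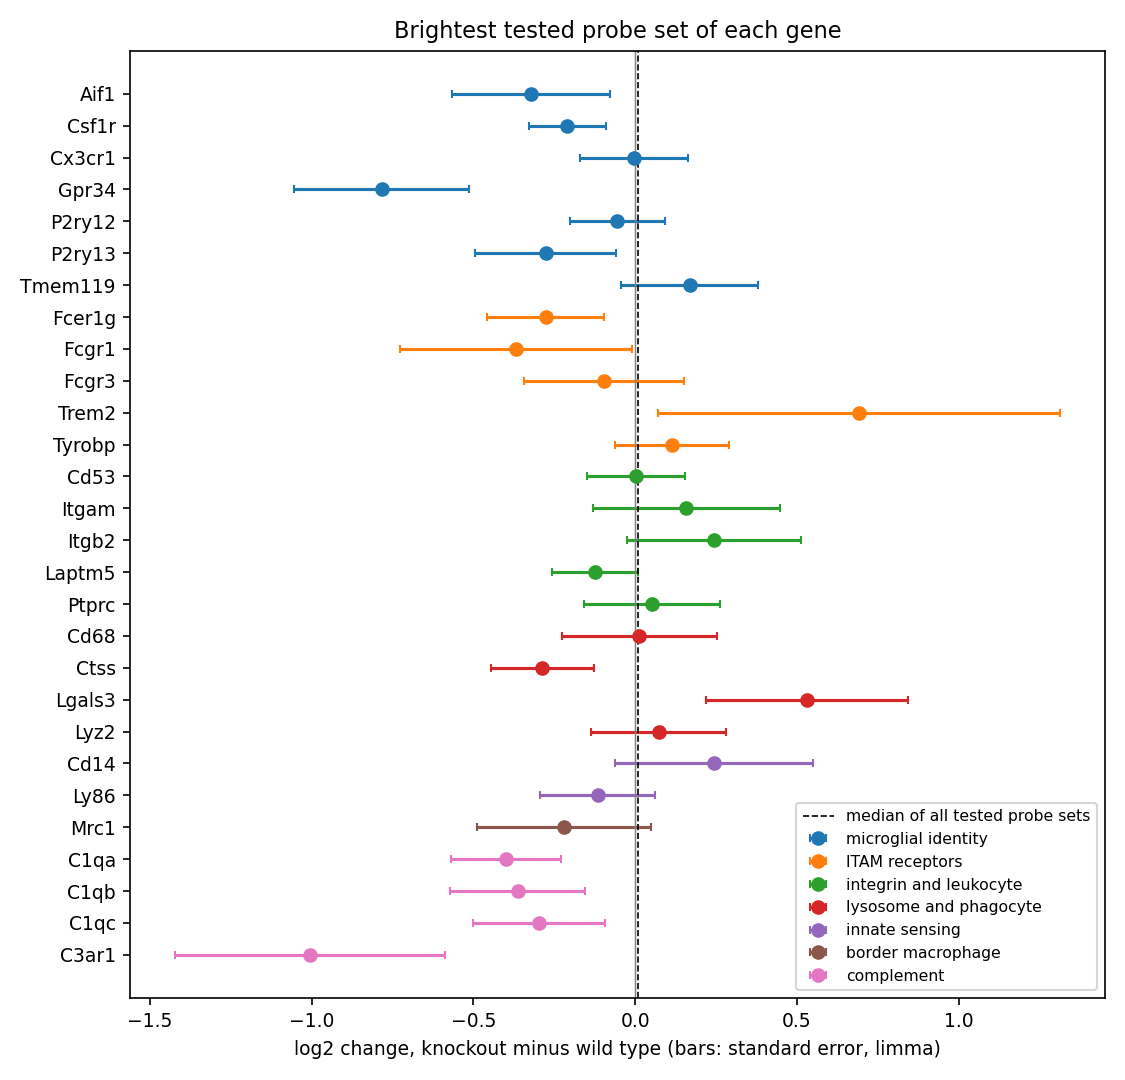
Log2 change of knockout minus wild type (x axis) for the brightest tested probe set of each of 28 genes (y axis), coloured by role, with limma's standard error as bars and the median of all tested probe sets (0.0077) as a dashed line. All 4 complement genes lie to the left of the line, C3ar1 with a fitted value that rests on dim knockout signals, and Trem2 has the widest bar (0.62).

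The complement genes had the lowest group median, -0.38 over 4 genes. C1qa read 1557, 1609 and 1451 in knockout and 1532, 2060.5 and 2645 in wild type. The groups overlapped, because wild type replicate 1 lay among the knockout arrays while wild type replicates 2 and 3 lay above them. The log2 change was -0.40 ± 0.17 (SE), a fold of 0.758 (limma adjusted p = 0.596).

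C1qb had 3 probe sets that gave different changes. Its brightest read 1378, 1453 and 1612 in knockout and 1272, 2109 and 2558 in wild type, and its second 959, 1015 and 891 in knockout and 1034, 1779 and 1800.0 in wild type. The third read 1112, 1192 and 806 in knockout and 822, 1228 and 1099 in wild type. At the second probe set every knockout array lay under every wild type array, the closest pair being 1015 and 1034, and at the others the genotypes overlapped. The log2 changes were -0.36 ± 0.21, -0.64 ± 0.19 and -0.018 ± 0.18 (SE), with limma adjusted p-values of 0.664, 0.591 and 0.986 in that order. The first 2 shifts were larger than their standard errors and the third was not.

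C1qc, the last C1q subunit gene, read 954, 990.1 and 1009 in knockout and 854, 1207 and 1715 in wild type, a log2 change of -0.30 ± 0.21 (SE, limma adjusted p = 0.701). Wild type replicate 1 was again under all knockout arrays and the other wild type arrays over them. Means were 985 ± 28.2 in knockout and 1259 ± 432 in wild type (SD, n = 3 each), so most of the spread was within wild type. C3ar1, the receptor for the C3a peptide, read 76.0, 130.2 and 72.6 in knockout and 154, 172 and 219 in wild type at its brightest probe set. The genotypes did not overlap, but all knockout signals lay under the array median, and against that median wild type was at least 1.23-fold higher (limma adjusted p = 0.595). Its other 2 probe sets were too dim to be tested, and their genotypes overlapped.

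**Figure D2:**
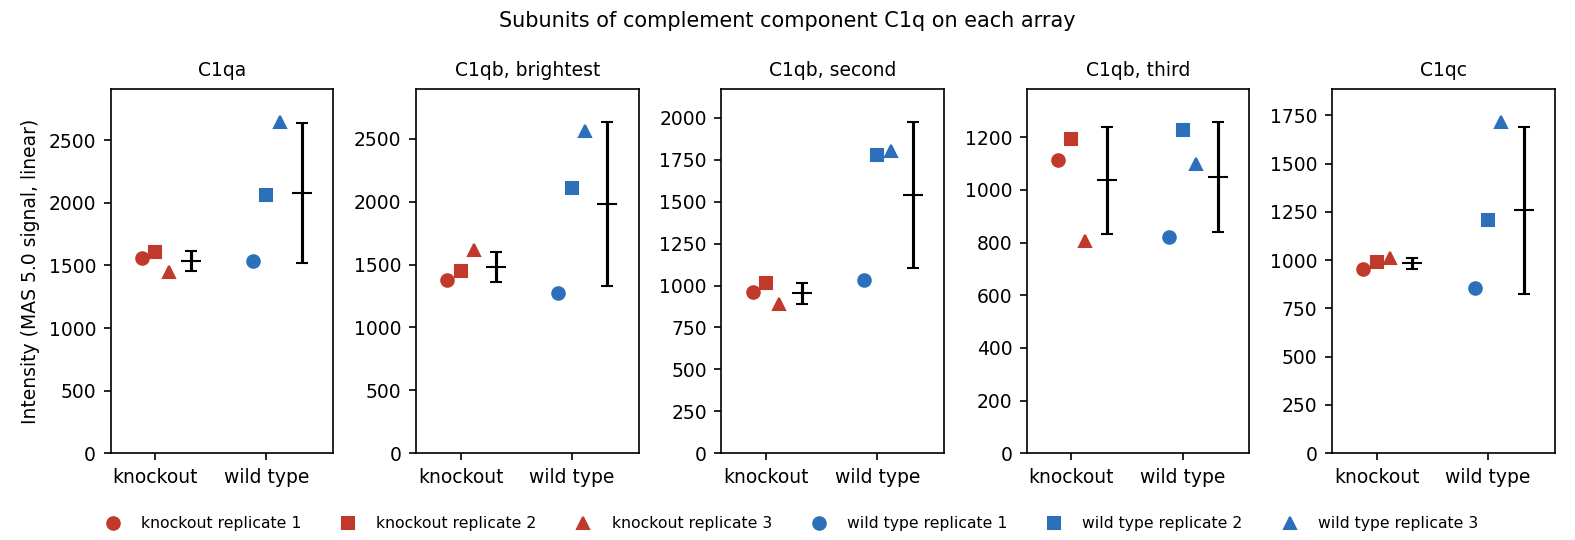
Intensity (y axis, linear MAS 5.0 signal) of the 5 C1q probe sets on each of 3 knockout (red) and 3 wild type (blue) arrays, with the mean and SD as black bars. Knockout arrays sit close together, wild type replicate 1 sits at or near their level, and wild type replicates 2 and 3 sit above them in all panels but the third of C1qb.

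The identity genes of microglia had a median log2 change of -0.21 over 7 genes, with 6 on the lower side. Gpr34, a receptor for lysophosphatidylserine, read 170.0, 145 and 192 in knockout and 225, 284 and 378 in wild type. It was the only one of the 7 whose genotypes did not overlap at the brightest probe set, with a log2 change of -0.78 ± 0.27 (SE) and a fold of 0.581 (limma adjusted p = 0.591). Over all 37 member probe sets, 3 (8.11%) were lower in knockout without overlap and 0 higher, beside 6.62% and 7.84% of all tested probe sets. These 3 were the probe sets of Gpr34 and C3ar1 and the second of C1qb. That of C3ar1 passed the filter through wild type only, which favours a difference.

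Csf1r, the receptor for the growth factors CSF1 and IL-34, was covered by 3 probe sets. The brightest read 5273, 6001 and 5479.8 in knockout and 5368, 7249.8 and 6893 in wild type, and the second 1461, 1443 and 1609 in knockout and 1319.7, 1958 and 1867 in wild type. The third read 936, 873 and 939 in knockout and 654, 831 and 1222 in wild type. Genotypes overlapped at all 3, the log2 changes were -0.21 ± 0.12, -0.17 ± 0.15 and 0.070 ± 0.20 (SE), and the probe sets thus differed in sign (limma adjusted p = 0.657, 0.766 and 0.940).

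Aif1, which encodes the cytoskeletal protein IBA1, read 201, 233 and 179.8 in knockout and 222, 247 and 299.9 in wild type, and only knockout replicate 2 entered the wild type range (log2 change -0.32 ± 0.24, SE). P2ry13, an ADP receptor, read 260.2, 247 and 207 in knockout and 251, 319 and 295 in wild type (log2 change -0.28 ± 0.22, SE). Neither passed the test (limma adjusted p = 0.723 and 0.737).

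The remaining identity genes gave no common direction. P2ry12, the ADP receptor through which microglial processes find injury, read 714, 743 and 742 in knockout and 768, 893 and 643 in wild type, and the knockout values lay inside the wild type range (log2 change -0.055 ± 0.15, SE). Tmem119, a membrane protein used to tell microglia from blood-derived macrophages, read 325, 369 and 379.8 in knockout and 301, 415 and 257 in wild type (log2 change 0.17 ± 0.21, SE). Cx3cr1, the receptor for the neuronal chemokine Cx3cl1, read 597, 907 and 776 in knockout and 702, 841 and 719.9 in wild type at its brightest probe set, with a log2 change of -0.0047 ± 0.17 (SE), and -0.13 ± 0.28 (SE) at the other. For these 3 genes limma's adjusted p lay between 0.849 and 0.997. An adjusted p that misses the threshold does not show that the levels were equal.

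**Figure D3:**
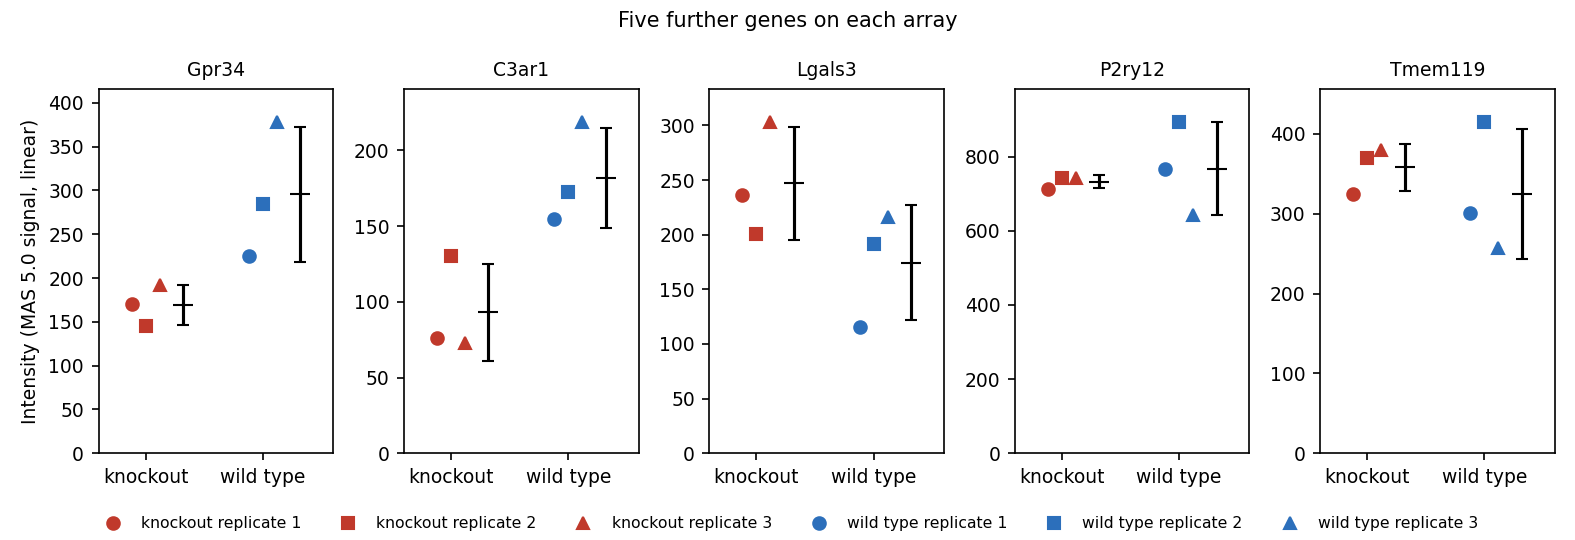
Intensity (y axis, linear MAS 5.0 signal) of Gpr34, C3ar1, Lgals3, P2ry12 and Tmem119 on each knockout (red) and wild type (blue) array, with the mean and SD as black bars. Genotypes are apart in Gpr34 and C3ar1 and overlap in the other panels, and in P2ry12 and Tmem119 wild type replicate 3 is the lowest array.

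Receptors that signal through an immunoreceptor tyrosine-based activation motif had a median log2 change of -0.097 over 5 genes, 3 of them on the lower side. Fcer1g, the signalling chain of Fc receptors, read 395, 422 and 486 in knockout and 417, 594 and 581 in wild type (log2 change -0.28 ± 0.18, SE, limma adjusted p = 0.687). Tyrobp, the adaptor of Trem2, read 768, 919 and 824 in knockout and 604, 985 and 768 in wild type (log2 change 0.12 ± 0.18, SE, limma adjusted p = 0.877). In both genes the genotypes overlapped, and the adaptors lay on opposite sides of 0.

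Trem2, a lipid receptor of microglia, read 162, 170.1 and 161 in knockout and 32.7, 146 and 222 in wild type. Its log2 change of 0.69 ± 0.62 (SE) turned on wild type replicate 1, without which it was -0.13. It passed the filter through knockout only, and its second probe set was too dim to be tested. Fcgr3, a low-affinity Fc receptor, read 313, 406 and 420.0 in knockout and 306, 357 and 598 in wild type. Fcgr1, the high-affinity Fc receptor, read 212, 184 and 153 in knockout and 131, 299 and 328 in wild type at its brightest probe set. The log2 changes were -0.097 ± 0.25 and -0.37 ± 0.36 (SE, limma adjusted p = 0.933 and 0.792), and the second Fcgr1 probe set, at -0.89 ± 0.43 (SE), passed the filter through wild type only.

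Integrin and pan-leukocyte genes lay near 0, with a median log2 change of 0.052 over 5 genes and 4 on the higher side. Itgb2 and Itgam encode the chains of complement receptor CR3, which binds fragments of C3. Itgb2 read 279, 319 and 289 in knockout and 202, 201 and 380.1 in wild type (log2 change 0.24 ± 0.27, SE), and Itgam 161, 197 and 201 in knockout and 146, 170.5 and 186 in wild type (log2 change 0.16 ± 0.29, SE). In wild type, Itgb2 was higher on replicate 3 than on any knockout array, and Itgam passed the filter through knockout only. The tyrosine phosphatase gene Ptprc, which encodes CD45, read 402, 434 and 441 in knockout and 298, 447 and 518 in wild type at its tested probe set (log2 change 0.052 ± 0.21, SE). The tetraspanin gene Cd53 read 454, 535 and 501 in knockout and 454, 543 and 491 in wild type (log2 change 0.0028 ± 0.15, SE), the smallest change among the 28 genes.

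Laptm5, a lysosomal membrane protein of leukocytes, had 5 probe sets of which 4 were tested, and they did not go together. The brightest read 654, 746 and 638 in knockout and 696, 767 and 754 in wild type (log2 change -0.12 ± 0.13, SE), and the second had a log2 change of -0.087 ± 0.17 (SE). The third read 209, 215 and 157 in knockout and 174, 37.6 and 313 in wild type (log2 change 0.59 ± 0.63, SE). The fourth read 75.9, 56.4 and 118 in knockout and 103, 214 and 382 in wild type (limma adjusted p = 0.595), with all knockout signals under the array median and wild type at least 1.396-fold higher against it. The 2 brighter probe sets of the gene did not show a difference of that size, and Csf1r and Laptm5 were the 2 genes whose tested probe sets differed in sign.

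Genes of the lysosome and of phagocytes had a median log2 change of 0.043 over 4 genes. Ctss, a lysosomal protease of microglia, read 3557, 4534 and 3798 in knockout and 3650.1, 5556 and 5484 in wild type (log2 change -0.29 ± 0.16, SE, limma adjusted p = 0.650). Lyz2, a lysozyme of myeloid cells, read 1549, 1522 and 1444 in knockout and 942, 1797 and 1728 in wild type (log2 change 0.073 ± 0.21, SE, limma adjusted p = 0.941). In both, wild type replicate 1 was the lowest wild type array and replicates 2 and 3 lay above all knockout arrays. Lyz2 has a near-identical neighbour, Lyz1, so its probe set may read both.

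Lgals3, which encodes galectin-3 and is raised in activated phagocytes, read 237, 201 and 303 in knockout and 115, 191 and 216 in wild type. Its log2 change of 0.53 ± 0.31 (SE, fold 1.45) was the largest on the higher side after Trem2 among the brightest tested probe sets of the genes and did not pass (limma adjusted p = 0.665). Cd68, a lysosomal glycoprotein of macrophages, read 365, 287 and 328 in knockout and 254, 289.7 and 454 in wild type (log2 change 0.014 ± 0.24, SE).

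Innate sensing genes lay on both sides of 0. Cd14, a co-receptor for lipopolysaccharide, read 267, 228 and 341 in knockout and 215, 161 and 361 in wild type (log2 change 0.24 ± 0.31, SE, limma adjusted p = 0.847). Ly86, the partner of the receptor RP105, read 1054, 1126 and 1259 in knockout and 906, 1435 and 1464 in wild type (log2 change -0.12 ± 0.18, SE, limma adjusted p = 0.878). Knockout arrays lay between wild type replicate 1 and the other wild type arrays in Ly86. Tlr2, a receptor for bacterial lipopeptides, read 184, 140.2 and 144 in knockout and 109, 134 and 341 in wild type and was not tested.

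Mrc1 and Cd163 mark macrophages of vessels and meninges. Mrc1, the mannose receptor, read 218, 218 and 184 in knockout and 185, 232 and 322 in wild type (log2 change -0.22 ± 0.27, SE, limma adjusted p = 0.841). Cd163, the receptor for haemoglobin bound to haptoglobin, read 59.7, 115 and 42.7 in knockout and 116, 189 and 136 in wild type. It did not overlap between genotypes, with 115.2 and 115.8 as the closest values, but it was not tested, because only 1 wild type array and no knockout array reached the array median.

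Across arrays the group moved within wild type more than between genotypes. As the median over the 28 genes of the log2 intensity minus its wild type mean, the group stood at -0.14, -0.060 and -0.011 on knockout replicates 1 to 3 and at -0.35, 0.14 and 0.28 on wild type replicates 1 to 3. All 3 knockout arrays thus lay between wild type replicate 1 and the other wild type arrays. Wild type replicate 1 had the lowest wild type value in 24 of 28 genes, beside 31.97% of all tested probe sets, and the exceptions were P2ry12, Tmem119, Itgb2 and Cd14. The knockout SD on the log2 scale was smaller than the wild type SD in 24 of 28 genes (85.7%), beside 68.0% of all tested probe sets. This order of the arrays was seen after the values were known and is a description.

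Without wild type replicate 1 the group differed more between genotypes. That array was the lowest wild type array in 24 of 28 genes, so leaving it out had to raise their wild type means. The counts that follow are therefore a description and not a test. Of 36 tested member probe sets, 13 (36.1%) were lower in knockout at an unadjusted limma p under 0.05 and 0 higher, beside 7.43% and 6.8% of all probe sets tested on those 5 arrays. They belonged to 11 genes: C1qa, C1qb with 2 probe sets, C1qc, C3ar1, Csf1r with 2, Gpr34, Ctss, Fcer1g, Fcgr1, Ly86 and Laptm5. The log2 changes of C1qa, the brightest C1qb probe set and C1qc were -0.60, -0.65 and -0.55, and that of the second C1qb probe set was -0.91, with the smallest adjusted p of any member (limma adjusted p = 0.0632). No member passed the adjusted threshold. In 20 of 36 probe sets (55.6%) all knockout arrays lay under both remaining wild type arrays, beside 15.9% of all tested. The median change was -0.26, beside 0.019 over all tested probe sets. In alternatives chosen after seeing the data, quantile normalization without that array also gave 13 lower (5.35% of all tested) beside 6.68% of all tested on the higher side, and the per-array median without it gave 4 lower (2.19% of all tested) and 0 higher (34.8% of all tested).

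The median intensity of wild type replicate 1 (147.9) was close to the knockout arrays (143.8 to 149.0) and under wild type replicates 2 and 3 (169.2 and 195.4). The level of the member group rose over wild type replicates 1 to 3 in the same order (-0.35, 0.14 and 0.28), and a link was not tested. In mean correlation with the other arrays, wild type replicate 1 (0.959) was close to the rest and wild type replicate 3 (0.930) stood apart. Without wild type replicate 3, 2 of 35 member probe sets were lower at an unadjusted limma p under 0.05, Gpr34 and the second of C1qb, beside 5.33% of all tested. A further 5 were higher, those of Trem2, Itgb2 and Lgals3 and the third probe sets of Csf1r and Laptm5, beside 6.53% of all tested. Without overlap, 4 were lower and 5 higher, beside 14.6% and 15.3% of all tested. The median change was then -0.022, and the smallest adjusted p was 0.341 (limma). The second probe set of C1qb was below the unadjusted threshold with each of the 6 arrays left out in turn but was not called by the methods' t-test, and Gpr34 was not below it without knockout replicate 2. The brightest C1qb probe set was below it only without wild type replicate 1, and the third C1qb probe set in none of these fits.

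**Figure D4:**
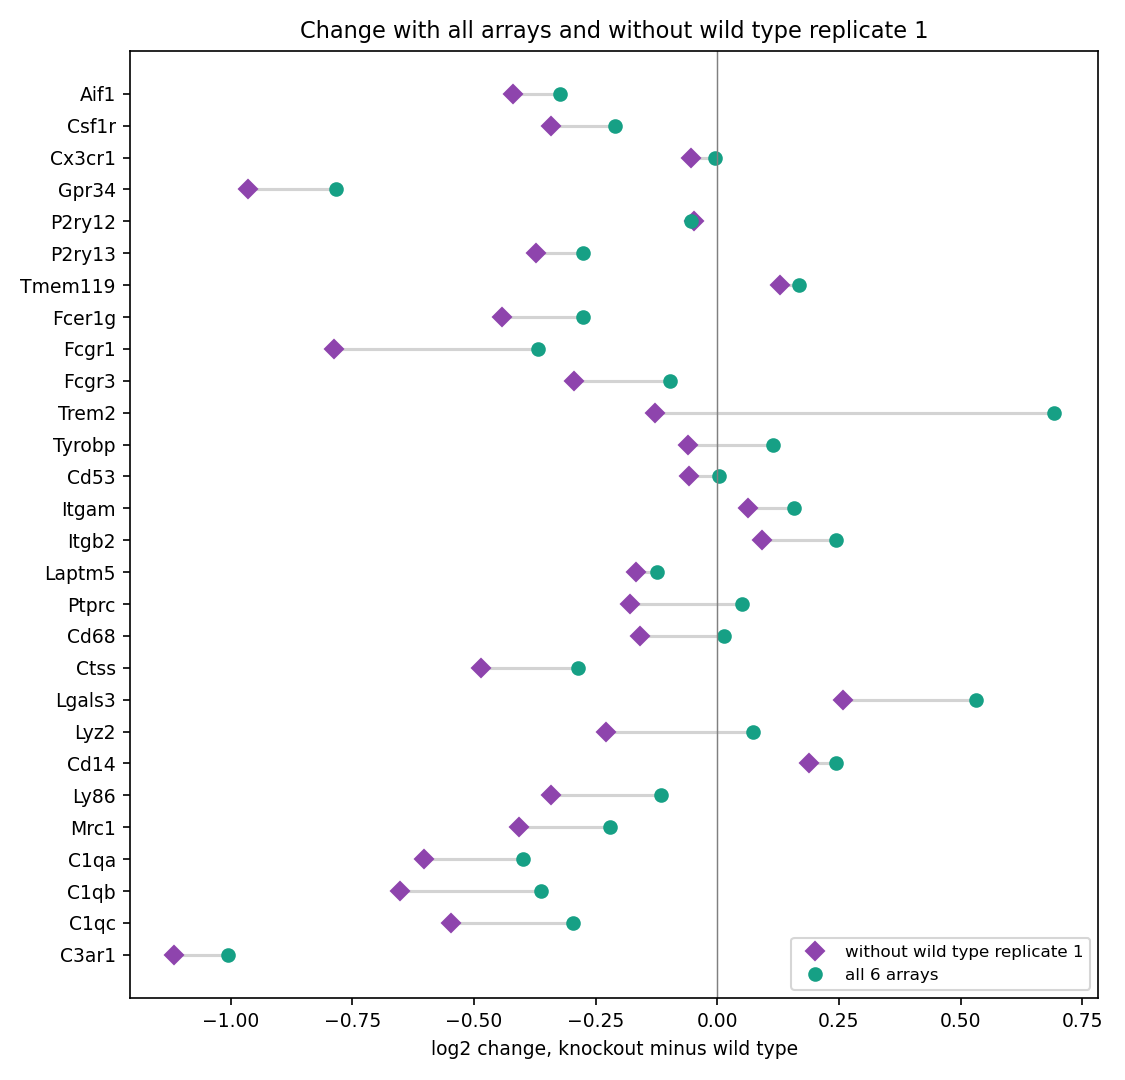
Log2 change of knockout minus wild type (x axis) for each of 28 genes (y axis), from all 6 arrays (circles) and without wild type replicate 1 (diamonds), joined by grey lines. Diamonds lie left of their circles in all genes but P2ry12, and 23 of 28 are below 0. The array left out was the lowest wild type array in 24 of 28 genes, which by itself moves their diamonds to the left.

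Genes of blood cells and of some other lists moved with the same array. The list of blood cell genes had 12 tested of 28, with 10 on the higher side in knockout and a median log2 change of 0.65, and on wild type replicate 1 its level was -1.02, against 0.75, 0.76 and 0.46 on the knockout arrays and 0.40 and 0.35 on the other wild type arrays. The summed intensity of the list was 11173 to 13208 in knockout and 3504 to 15269.5 in wild type. S100a8, a calcium-binding protein of neutrophils, read 4488, 4402 and 3471 in knockout and 953, 3357 and 5291 in wild type. Ngp, a granule protein of neutrophils, read 1872, 1795 and 1896 in knockout and 377, 1332 and 2021 in wild type. Both were thus lowest on wild type replicate 1, and their genotypes overlapped. The gene Slc4a1, which encodes the anion exchanger of red cells, did not overlap, with 188, 256 and 238 in knockout and 57.03, 71.5 and 80.8 in wild type (limma adjusted p = 0.591), at least 1.33-fold higher in knockout against the array median. Slc4a1 passed the filter through knockout only, which favours a difference. Of all tested probe sets, 7.84% were higher in knockout without overlap. Defining markers of T and B cells, Cd3e, Cd3d, Cd79a, Cd79b and Ms4a1, were too dim to be tested. The part of blood cells in the result on microglial genes was not tested.

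**Figure D5:**
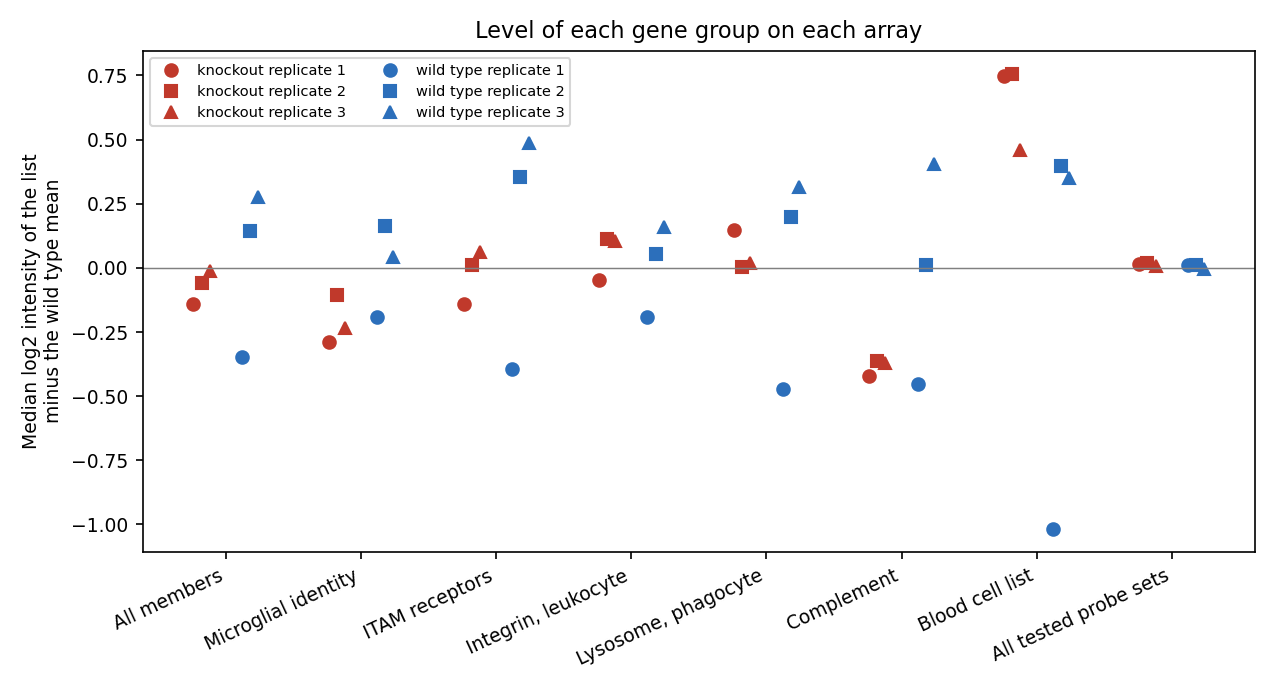
Level of each gene group on each array (y axis, median over genes of log2 intensity minus the wild type mean) for knockout (red) and wild type (blue). Wild type replicate 1 is the lowest wild type array in each gene group, from -0.19 for identity genes to -1.02 for the blood cell list, while all tested probe sets stay between -0.0027 and 0.017.

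Lists of other cell types were read for the same reason. Endothelial genes had a median log2 change of -0.10 over 9 genes with summed intensities of 7384 to 8021 in knockout and 7228 to 9686 in wild type, and astrocyte genes 0.059 over 8 genes with 68136 to 69545 in knockout and 60813 to 69277 in wild type. Oligodendrocyte genes had 0.29 over 9 genes with 125959 to 139774 in knockout and 109347 to 112927 in wild type, sums that did not overlap between genotypes. Of their 23 tested probe sets, 11 were higher and 0 lower at an unadjusted limma p under 0.05, beside 4.3% and 3.98% of all tested. None of them passed adjustment. Neuronal genes had 0.16 over 10 genes with 86376 to 88429.9 in knockout and 70676 to 87650.4 in wild type. Meningeal fibroblast genes had 0.049 over 11 genes with 36430.1 to 41599 in knockout and 33991 to 36589 in wild type, and skeletal muscle genes 0.44 over 7 genes with 1726 to 13312 in knockout and 1133 to 6791 in wild type. As levels, the endothelial list stood at -0.23, -0.071 and -0.057 on knockout replicates 1 to 3 and at -0.22, -0.046 and 0.28 on wild type replicates 1 to 3, so wild type replicate 1 was the lowest wild type array there too. The muscle list stood at -0.44, 2.35 and -0.48 in knockout and at -1.27, -0.18 and 1.38 in wild type, and the list of myeloid factors and signalling genes at 0.055, 0.019 and 0.0023 in knockout and at -0.31, 0.047 and 0.36 in wild type, with the same order of the wild type arrays. Replicate 1 was also the lowest wild type array for oligodendrocyte genes, further complement genes, further homeostatic genes of microglia and ligands. It was not the lowest in other lists. The lowest was replicate 3 for astrocyte and neuronal genes (-0.13 and -0.17). It was replicate 2 for meningeal fibroblast genes and genes raised in activated microglia (-0.068 and -0.028). The part of any of these lists in the result was not tested.

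Other genes of the pathway were read from lists. Of 37 further complement genes, 10 were tested, 8 on the higher side, with a median log2 change of 0.083. Over their 19 tested probe sets, 3 were higher and 2 lower at an unadjusted limma p under 0.05, beside 4.3% and 3.98% of all tested probe sets. Taking each gene at its brightest tested probe set, 2 genes were higher and 1 lower. The higher ones were Vtn, vitronectin, an inhibitor of the terminal complex, at 3528 ± 358 in knockout and 2856 ± 414 in wild type, and C1qbp, a mitochondrial protein that also binds C1q, at 9695 ± 745 in knockout and 8285 ± 409.6 in wild type (SD, n = 3 each). C1ql1, a C1q-like protein made by neurons, was the lower one at 143 ± 66.7 in knockout and 237 ± 11.8 in wild type. Serping1, the inhibitor of C1, followed at 1449 ± 119 in knockout and 1237 ± 50.8 in wild type. None of these 4 passed adjustment (limma adjusted p = 0.595 to 0.620).

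Further homeostatic genes of microglia had a median log2 change of -0.031 over 20 tested of 29 genes, with 9 on the higher side. Cd33, an inhibitory lectin, was the 1 gene at an unadjusted limma p under 0.05 (adjusted p = 0.595), on the lower side, beside 3.98% of all tested probe sets. Cd33 passed the filter through wild type only, which favours a difference. It read 111, 106 and 85.2 in knockout and 154, 185 and 246 in wild type, at least 1.31-fold higher in wild type against the array median.

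Myeloid transcription factors and signalling genes had a median of 0.027 over 17 tested of 29 genes. Fgr, a Src-family kinase, was lower in knockout and Runx1, a factor of blood cell lineages, higher at an unadjusted limma p under 0.05, with 60.2 ± 7.95 in knockout and 190.0 ± 92.1 in wild type for Fgr and 147 ± 29.9 in knockout and 52.4 ± 24.6 in wild type for Runx1 (SD, n = 3 each, limma adjusted p = 0.591 and 0.595). Fgr passed the filter through wild type only and Runx1 through knockout only, which favours a difference in both. Over the 30 tested probe sets of this list, 2 were lower and 1 higher at that unadjusted limma p, beside 3.98% and 4.3% of all tested probe sets. Against the array median, Fgr was at least 1.19-fold higher in wild type, and no bound can be given for Runx1. Genes raised in activated microglia had a median of 0.030 over 19 tested of 35 genes, with 11 on the higher side, and of -0.017 with quantile normalization.

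Apoe, an apolipoprotein of astrocytes and activated microglia, read 18884, 18786 and 23808 in knockout and 17304, 15377 and 15726 in wild type. Cd9, a tetraspanin also abundant in oligodendrocytes, read 4954, 4242 and 4697 in knockout and 4234, 3551 and 3156 in wild type. Igf1, a growth factor, read 354, 488 and 343 in knockout and 618, 529.5 and 619 in wild type at its brightest probe set. The genotypes did not overlap in any of the 3, Apoe and Cd9 were higher in knockout and Igf1 lower, and none passed (limma adjusted p = 0.591 each). Of all tested probe sets, 7.84% were higher and 6.62% lower without overlap.

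Ligands that reach microglia from other cells had a median of 0.016 over 9 tested of 14 genes. Sirpa, the receptor for the signal carried by Cd47, read 1047, 1055 and 1035 in knockout and 1177, 1238 and 1385 in wild type at its brightest probe set, without overlap (log2 change -0.27 ± 0.11, SE, limma adjusted p = 0.595), as in 6.62% of all tested probe sets on the lower side. Its other 2 probe sets had log2 changes of -0.091 and 0.12. Cx3cl1, the ligand of Cx3cr1, read 2164, 1748 and 2153 in knockout and 1729, 1559 and 1763 in wild type, with 1 knockout array inside the wild type range (log2 change 0.26 ± 0.12, SE, limma adjusted p = 0.603).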

How the data were processed

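Scanned arrays were analysed by the authors with MAS 5.0, run in GCOS 1.4 (submitters' processing notes and design text), and 1 intensity per probe set was deposited on a linear scale. The GeneSpring 7.2 steps that the design text describes are not in these values. Here the deposited intensities were converted to log2 with no further scaling. The 64 control probe sets were left out. The filter took the place of present calls: a probe set had to reach its own array's 50th percentile on 2 or more arrays of either genotype. The genotypes were compared with limma 3.58.1 in R 4.3.3 (lmFit, then eBayes with its trend option), with Benjamini-Hochberg adjustment over all 23546 tested probe sets. Gene symbols are those of the platform annotation, brought up to date with RefSeq gene identifiers (34754 of 34945 probe sets with 1 symbol were found, 932 had several symbols and 9160 none). A gene was represented by its brightest tested probe set. A genotype wholly under the array medians has only a bound, set at those medians.

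Member genes, gene lists and settings were chosen with earlier results of these data known. Any member could be named, and from each other list up to 4 genes with the smallest p plus defining markers of other cell types. The per-array median and the 1-factor test of the design text were run as alternatives (the test as the methods' t-test), beside quantile normalization, other filters, an offset, no trend, a replicate block and each array left out. The number of arrays limits the precision. The model was tested on simulated data, with 200 of 23546 probe sets changed in each of 5 simulations. At an adjusted limma p under 0.05 it recovered 13.1% of 1.5-fold, 34.3% of 2-fold and 72.7% of 4-fold changes. Most changes of 1.5-fold or 2-fold were thus missed there. Scan dates and batches are not given in the sources used here.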

Additional observations from a re-analysis of the deposited data

How the results depend on the processing

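Dividing each array by its median, the step of the design text, moved the median change of all tested probe sets to 0.23 from 0.0077. The unadjusted counts over all probe sets became 2800 higher and 263 lower, against 1013 and 938, and 1 was higher past the adjusted threshold. The member median became 0.11 but stayed at -0.11 relative to all tested, which this step cannot change. Under that scaling 1 member probe set was higher and 3 lower at an unadjusted p under 0.05 (11.9% and 1.12% of all tested), and 3 were higher and 3 lower without overlap (19.9% and 2.06% of all tested). Quantile normalization gave 1 member higher and 5 lower at that p (3.68% and 2.81% of all tested), and 2 higher and 3 lower without overlap (7.16% and 5.48% of all tested). The 75th percentile filter left 2 member probe sets of 16 lower at that p (2.11% of all tested), 1 lower without overlap (3.71% of all tested) and 247 of all probe sets lower, the 25th percentile filter 1810 and no filter 2488. The methods' t-test called 527 higher and 609 lower of all and 2 members lower, and 0 lower of all after adjustment. eBayes without trend also called 0 lower. Without that trend or in the methods' t-test the lost Rtn4 probe set (-7.63 relative to all tested) had an adjusted p of 0.536 and 0.684.

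Leaving out 1 array at a time gave 0 to 1 higher and 0 to 8 lower probe sets past the adjusted limma threshold, 390 to 1570 higher and 553 to 1715 lower at the unadjusted one, 0 to 5 members higher and 2 to 13 lower at it (1.69% to 6.8% and 2.4% to 7.43% of all tested), 0 to 5 members higher and 3 to 20 lower without overlap (11.2% to 16.8% and 9.68% to 15.9% of all tested), and -8.80 to -6.84 for the lost Rtn4 probe set, whose call was lost without knockout replicate 2 or wild type replicate 2. The highest member counts on the lower side came without wild type replicate 1, the lowest wild type array in 24 of 28 member genes. After seeing the data that array was also left out with quantile normalization, which gave 13 members lower (5.35% of all tested), and with the per-array median, which gave 4 (2.19% of all tested) and 0 higher (34.8% of all tested). The member median kept its sign relative to all tested in every alternative that gave one, between -0.28 and -0.023. The per-array median and the replicate block could not change it (-0.11 in both). The first moves all changes alike, and the block was balanced over the genotypes. No member passed the adjusted threshold in any of them (smallest adjusted p = 0.0632).

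Of 30 member probe sets followed, 19 kept their direction relative to all tested in every alternative. The per-array median, eBayes without trend, the replicate block and the methods' t-test could not turn a direction, so all 30 stayed the same there. Relative to all tested, Cx3cr1 turned to 0.088 without a filter and 0.035 with the 25th percentile filter, and P2ry12 to 0.038 without a filter. Cd53 turned to 0.011, 0.096 and 0.042 with quantile normalization, no filter and the 25th percentile filter, and Cd68 to -0.0030 with the offset. A filter does not alter the log2 change of a gene, so in the filter settings only the median of all tested moved. With 1 array left out, values ran from -0.15 to 0.15 in Cx3cr1, -0.18 to 0.041 in P2ry12, -0.15 to 1.25 in Trem2, -0.079 to 0.27 in Tyrobp, -0.31 to 0.19 in Fcgr3, -0.20 to 0.22 in Ptprc, -0.078 to 0.059 in Cd53, -0.18 to 0.26 in Cd68, -0.25 to 0.22 in Lyz2, -0.038 to 0.56 in Cd14 and -0.36 to 0.0028 in Ly86. The cause of the turns in the settings other than filters was not tested.

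The replicate numbers pair no animals by the labels, and same-numbered arrays correlated in their deviations at -0.034, 0.074 and 0.11; not every array correlated best with its own number. With the replicate number as a block, 8 member probe sets were lower and 0 higher at an unadjusted p under 0.05 (4.6% and 5.29% of all tested), and 3 of all probe sets were higher past the adjusted threshold.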
